A study of Mus musculus with 20 samples.

Results

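The 5 genes described here belong to fatty acid activation and triglyceride synthesis: Acsl3 and Acsl5, which encode long-chain acyl-CoA synthetases, Gpd2, Dgat2 and Mid1ip1. They were taken as all clones annotated to these genes on 2 designs of spotted mouse cDNA array, in liver and in brown adipose tissue, a fat depot that produces heat, and each ratio was turned to the Fob3b line over the F line by the channel labels. Every gene was represented by 1 clone, printed as a pair of spots, so that the genes made up 5 of 15360 clones. Gpd2 was on the first design only, and Acsl3, Acsl5, Dgat2 and Mid1ip1 were on the second only, so no member could be compared between designs.

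The RNA came from mice of the Fob3b line, a congenic line that holds lean-line alleles at the Fob3b obesity locus in the background of the F line, and it was set against RNA of the F line, which was selected for high body fat. No treatment, age or sex is stated in the labels. Each line and tissue was represented by pools 1 and 2 of total RNA, and how many animals a pool holds is not given. Pools of the same number were hybridised against each other, Fob3b with F, once in each dye orientation. Each design was used for 10 arrays. The first held 4 such liver arrays, 4 of brown adipose tissue and 2 in which a liver pool was hybridised against itself, and the second held 4 liver arrays, 2 brown adipose arrays, both of pool pair 1, and 4 more that joined liver pools in other ways. The brown adipose arrays of the second design are described in 1 label field as a comparison within the F line, but their channel labels name Fob3b and F, and the channels were followed.

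A long-chain fatty acid is used only after an acyl-CoA synthetase has joined it to coenzyme A. The acyl-CoA is then placed on glycerol 3-phosphate in successive steps that end with diacylglycerol acyltransferase, which makes triglyceride. In liver this fat is stored in droplets or secreted, and in brown adipose tissue the droplets supply fuel for heat production.

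Each value is the logarithm of a dye ratio, read as log2 and given relative to the array's median clone. Which dye was divided by the other is not stated. A positive value means more RNA in Fob3b than in F if red was divided by green. If green was divided by red, all signs given here turn together. A ratio from bulk tissue cannot tell apart fewer cells of a type and less RNA per cell. Before the array medians were taken off, the median clone of the first design stood at -0.11 in liver and 0.30 in brown adipose tissue, and that of the second at -0.37 in liver and -0.36 in brown adipose tissue, so that every sign is relative to that median. A ratio also carries no level, so neither the order of the genes by abundance nor the labelled tissue could be read from it. Arrays differed in quality: the paired spots of a clone correlated at 0.760 to 0.932 (first design) and 0.636 to 0.865 (second design), and the printing block of a clone accounted for 12.6% to 74.1% of the spread among clones (variance) on first-design arrays and 6.61% to 46.8% on second-design arrays. The few arrays limit the precision, with n = 2 pool pairs for each tissue except for brown adipose tissue on the second design, where n = 1.

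None of the 5 genes passed the test in limma, at an adjusted p under 0.05 over all 7680 clones of a design. In the same tests 0.378% of clones passed in liver on the second design, and 0% passed in liver, in brown adipose tissue or in the difference of the tissues on the first. Of the 7 tests made on the genes, 3 had an unadjusted p under 0.05, namely Dgat2 in liver, Gpd2 in brown adipose tissue and the tissue difference of Gpd2. In liver on the second design 8.02% of clones reached that level with a negative ratio, as Dgat2 did, while on the first design 0.846% reached it in brown adipose tissue and 2.86% for the difference. The signs were mixed: in liver 1 of the 5 genes had a positive mean ratio, and in brown adipose tissue 3 had one.

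**Figure D1:**
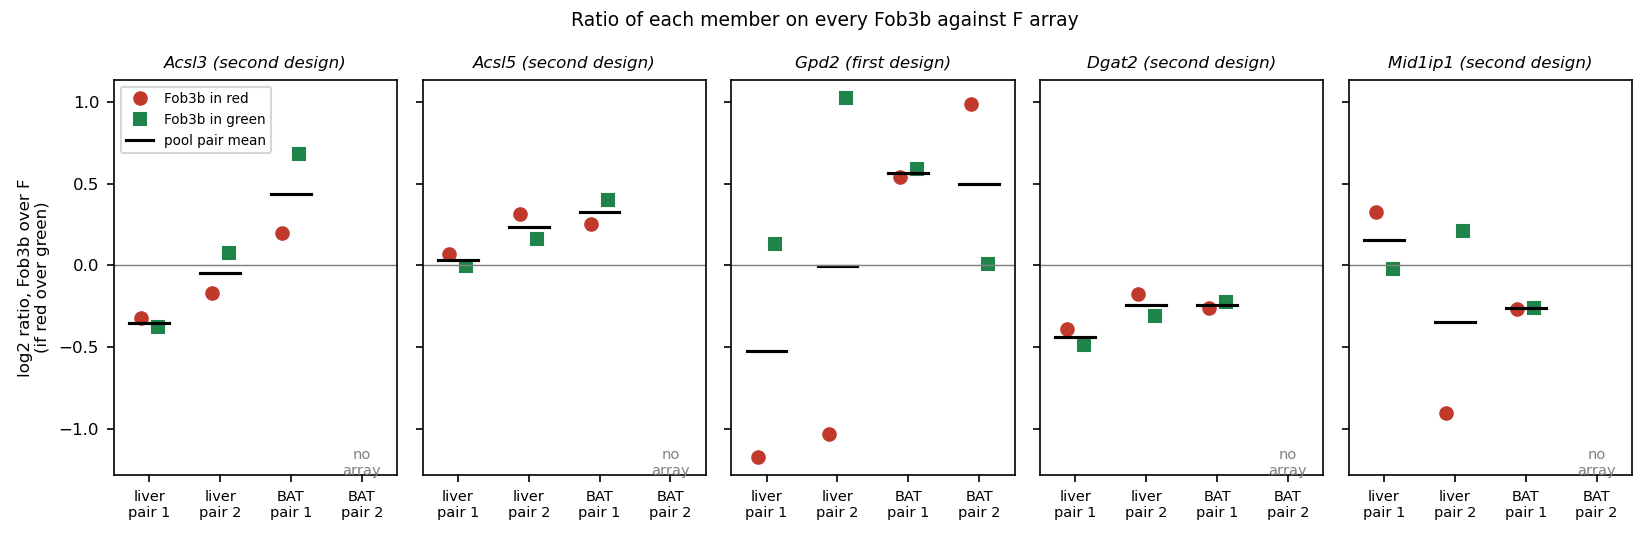
Log2 ratio of Fob3b over F (vertical axis, if red was divided by green) for each gene on the dye-swapped arrays of Fob3b against F, by tissue and pool pair, without the 2 crossed-pool arrays. Circles are arrays with Fob3b RNA in red, squares those with Fob3b RNA in green, and bars the mean of a pool pair. Dgat2 lies below 0 on all 6 arrays shown, but at 0.52 on the crossed array with Fob3b RNA in red. The dye orientations of Gpd2 in liver lie far apart.

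Acsl3 activates long-chain fatty acids at the endoplasmic reticulum and at lipid droplets. On the liver arrays of pool pair 1 it had log2 ratios of -0.32 with Fob3b RNA in red and -0.38 with Fob3b RNA in green. In pool pair 2 these were -0.17 and 0.07. Of the 4 liver arrays 3 were thus below 0, and the pool pairs, at -0.35 and -0.05, differed by more than the dye orientations did. The mean in liver was -0.20 (SE 0.10, n = 2 pool pairs, SD 0.21), a 1.15-fold difference that did not pass (limma, adjusted p = 0.563). In brown adipose tissue Acsl3 had 0.20 with Fob3b RNA in red and 0.68 with Fob3b RNA in green. Its mean from 1 pool pair was 0.44 or 1.36-fold (0.08 where array medians were kept), which was not tested. Only 124 of 7680 clones lay above Acsl3. Both spots were not alike on each array: with Fob3b RNA in red they gave -0.01 and 0.40.

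Acsl5, a synthetase of the endoplasmic reticulum and mitochondria, had liver ratios of 0.07 with Fob3b RNA in red and -0.01 with Fob3b RNA in green in pool pair 1. Pool pair 2 gave 0.31 and 0.16. Of the liver arrays 3 lay above 0 and 1 just below it, and the mean was 0.13 (SE 0.09, n = 2 pool pairs, SD 0.14; limma, adjusted p = 0.724). Brown adipose tissue gave 0.26 with Fob3b RNA in red and 0.40 with Fob3b RNA in green, a mean of 0.33 or 1.26-fold, with no test (-0.03 where array medians were kept). Positive ratios on both brown adipose arrays, as Acsl3 and Acsl5 had them, were found for 29.9% of clones. Both tissues thus had a positive mean for Acsl5, while for Acsl3 the liver pool pairs were negative and the brown adipose pair was positive. Relative to the median of its printing block, liver pool pair 2 of Acsl3 was not negative, at 0.0019 and 0.076. Liver minus brown adipose tissue was -0.64 for Acsl3 and -0.19 for Acsl5, both without a test. Both liver pairs negative beside a positive brown adipose pair was a pattern of 8.33% of clones on this design.

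The 250 bases before the annotated starts of Acsl3, Acsl5 and Gpd2 are shown because these are the members that were positive on every brown adipose array. They are from RefSeq, build GRCm38.p6, plus strand, at chr1:78657575-78657824 for Acsl3, chr19:55253119-55253368 for Acsl5, and chr2:57237428-57237677 and chr2:57238132-57238381 for the starts of Gpd2. The Acsl5 window lies within the annotated gene, which begins at 55251861, so the start it precedes is not the outermost one. Capitals mark CCAAT boxes (CCAAT) and GC boxes (GGGCGG), searched on both strands. The Acsl3 window holds 5 GC boxes and 1 CCAAT box, the Acsl5 window 1 CCAAT box, and of the Gpd2 windows the first holds neither and the other 1 GC box. The G+C content is 75.6% for Acsl3, 52.8% for Acsl5, and 48.8% and 71.2% for Gpd2. The Mid1ip1 window, at 66.8%, holds 2 GC boxes. Of 32851 promoter windows of this length 33.9% hold a CCAAT box and 32.7% a GC box, so neither motif is rare. E-boxes (CACGTG, in 6.02% of windows), a sterol element core (TCACNCCAC, 1.05%) and TATA boxes (TATAAA, 12.4%) were searched as well, and those letters are in none of these windows.
Acsl3: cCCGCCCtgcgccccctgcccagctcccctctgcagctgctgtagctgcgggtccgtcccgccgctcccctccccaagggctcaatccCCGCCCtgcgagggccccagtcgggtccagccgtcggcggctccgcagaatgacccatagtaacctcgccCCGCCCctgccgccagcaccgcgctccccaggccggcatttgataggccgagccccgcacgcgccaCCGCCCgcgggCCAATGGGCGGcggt
Acsl5: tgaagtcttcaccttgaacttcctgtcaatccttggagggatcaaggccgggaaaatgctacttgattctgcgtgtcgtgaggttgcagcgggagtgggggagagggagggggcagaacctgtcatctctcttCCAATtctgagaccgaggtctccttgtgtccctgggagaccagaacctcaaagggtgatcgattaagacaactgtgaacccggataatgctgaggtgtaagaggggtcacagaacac
Gpd2 first start: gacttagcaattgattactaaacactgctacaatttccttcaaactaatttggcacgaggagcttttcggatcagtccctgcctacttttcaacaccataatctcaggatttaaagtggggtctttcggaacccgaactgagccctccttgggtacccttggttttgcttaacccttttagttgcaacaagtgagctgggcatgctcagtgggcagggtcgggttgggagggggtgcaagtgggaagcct
Gpd2 other start: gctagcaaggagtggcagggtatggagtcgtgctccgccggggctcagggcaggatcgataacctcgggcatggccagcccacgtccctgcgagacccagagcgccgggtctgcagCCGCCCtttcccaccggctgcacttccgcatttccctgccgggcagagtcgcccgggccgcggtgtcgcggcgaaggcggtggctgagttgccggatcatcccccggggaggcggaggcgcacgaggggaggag

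Gpd2 is the mitochondrial glycerol-3-phosphate dehydrogenase, which passes electrons of glycerol 3-phosphate to the respiratory chain and so draws on the backbone of triglyceride. It is abundant in brown adipose tissue. In liver on the first design its ratios were -1.17 with Fob3b RNA in red and 0.13 with Fob3b RNA in green in pool pair 1, and -1.03 and 1.02 in pool pair 2. Brown adipose ratios were 0.54 and 0.59 in pool pair 1, and 0.99 and 0.01 in pool pair 2. All 4 brown adipose arrays were positive, which held for 2.58% of clones, while in liver the sign followed the dye orientation in both pool pairs. The brown adipose value of 0.01 is close to 0 and joins spots of opposite sign, at 0.13 and -0.12.

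The liver pool pairs of Gpd2 were -0.52 and -0.0046, and the brown adipose pairs were 0.57 and 0.50. Its mean was -0.26 (SE 0.20, n = 2 pool pairs, SD 0.37) in liver and 0.53 (SE 0.20, n = 2, SD 0.05), or 1.45-fold, in brown adipose tissue. Neither passed, with adjusted p = 0.99998 in liver and 0.99997 in brown adipose tissue in limma, where the unadjusted p was 0.224 and 0.0248. In brown adipose tissue 36 of 7680 clones lay above Gpd2. The limma contrast of liver minus brown adipose tissue was -0.80 (SE 0.29, adjusted p = 0.99956), a value that 61 clones undercut. The pool numbers do not show that a liver and a brown adipose pool share animals.

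The part of the Gpd2 signal that stays with the dye, as red over green, was -0.65 and -1.03 in the liver pool pairs 1 and 2, and 0.430% and 2.58% of clones lay at or below these values. With the same liver pool in both channels, where no difference of lines exists, Gpd2 had -0.33 on the Fob3b array and -0.32 on the F array, red over green. The median of the 160 clones in its printing block differed between arrays as well: turned to Fob3b over F, it was -0.72 and 0.04 in liver pool pair 1 and -0.73 and 1.43 in pool pair 2, red first. Relative to that median the liver ratios were -0.45, 0.09, -0.31 and -0.41, and the brown adipose ratios were 0.97 and 0.59 in pool pair 1 and 0.89 and -0.25 in pool pair 2. With the block taken off, 1 brown adipose array lay below 0. The means with every block centred, -0.27 in liver and 0.55 in brown adipose tissue, stayed close to those above. The part of dye and block in the liver result was not tested.

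**Figure D2:**
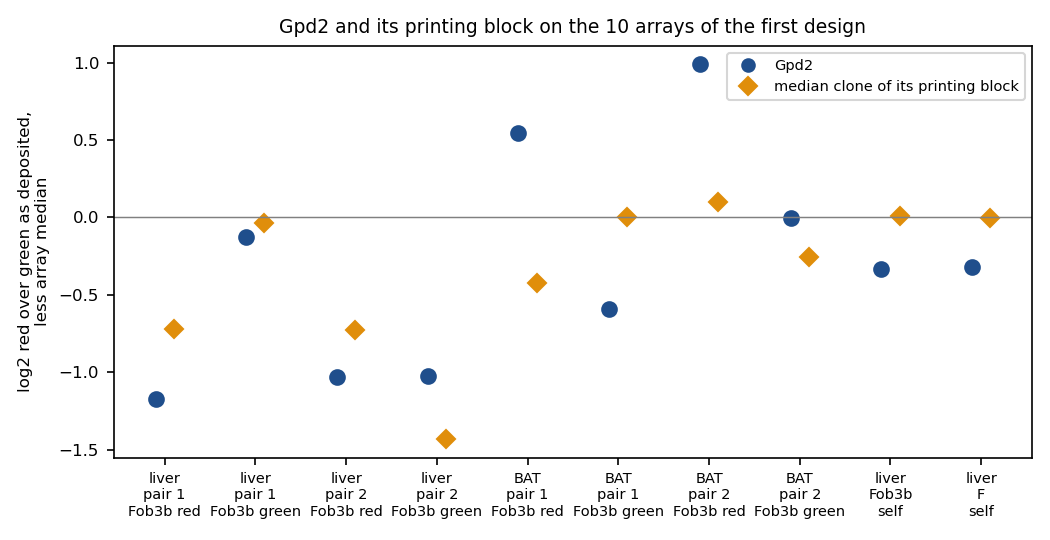
Log2 ratio of red over green (vertical axis, less the array median) of Gpd2 and of the median clone in its printing block on the 10 arrays of the first design. In liver Gpd2 lies below 0 on all arrays whichever line is in red, and its block lies at -0.72 and -0.73 where Fob3b was in red.

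Dgat2 catalyses the last step of triglyceride synthesis, the acylation of diacylglycerol. In liver it had -0.39 with Fob3b RNA in red and -0.49 with Fob3b RNA in green in pool pair 1. In pool pair 2 it had -0.17 and -0.31. All 4 of these arrays were on the negative side, as they were for 9.93% of clones on this design, and the pool pairs were -0.44 and -0.24. Of the 2 crossed-pool arrays, which had no dye swap, the 1 with Fob3b RNA in red was positive. The mean was -0.34 (SE 0.09, n = 2 pool pairs, SD 0.14), a 1.27-fold difference, with an unadjusted p of 0.00417 that did not pass after adjustment (limma, adjusted p = 0.166). Among all clones 219 lay lower. The brown adipose ratios were -0.26 with Fob3b RNA in red and -0.22 with Fob3b RNA in green. Their mean from 1 pool pair was -0.24 (-0.60 where array medians were kept). This is a less extreme place in that tissue, where 1173 clones lay lower and 32.1% of clones were negative on both arrays.

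Mid1ip1 encodes a small protein that binds acetyl-CoA carboxylase and promotes its assembly into active filaments, a control point of fatty acid synthesis. Its liver ratios were 0.33 with Fob3b RNA in red and -0.02 with Fob3b RNA in green in pool pair 1, and -0.91 and 0.21 in pool pair 2. The dye orientations differed in sign in each pool pair, and the pairs, 0.15 and -0.35, had opposite signs too. The mean was -0.10 (SE 0.12, n = 2 pool pairs, SD 0.35; limma, adjusted p = 0.873). Both brown adipose arrays lay close together, at -0.27 with Fob3b RNA in red and -0.26 with Fob3b RNA in green. Clones lower than their mean of -0.26 numbered 1041. Where array medians were kept, the mean was -0.62.

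**Figure D3:**
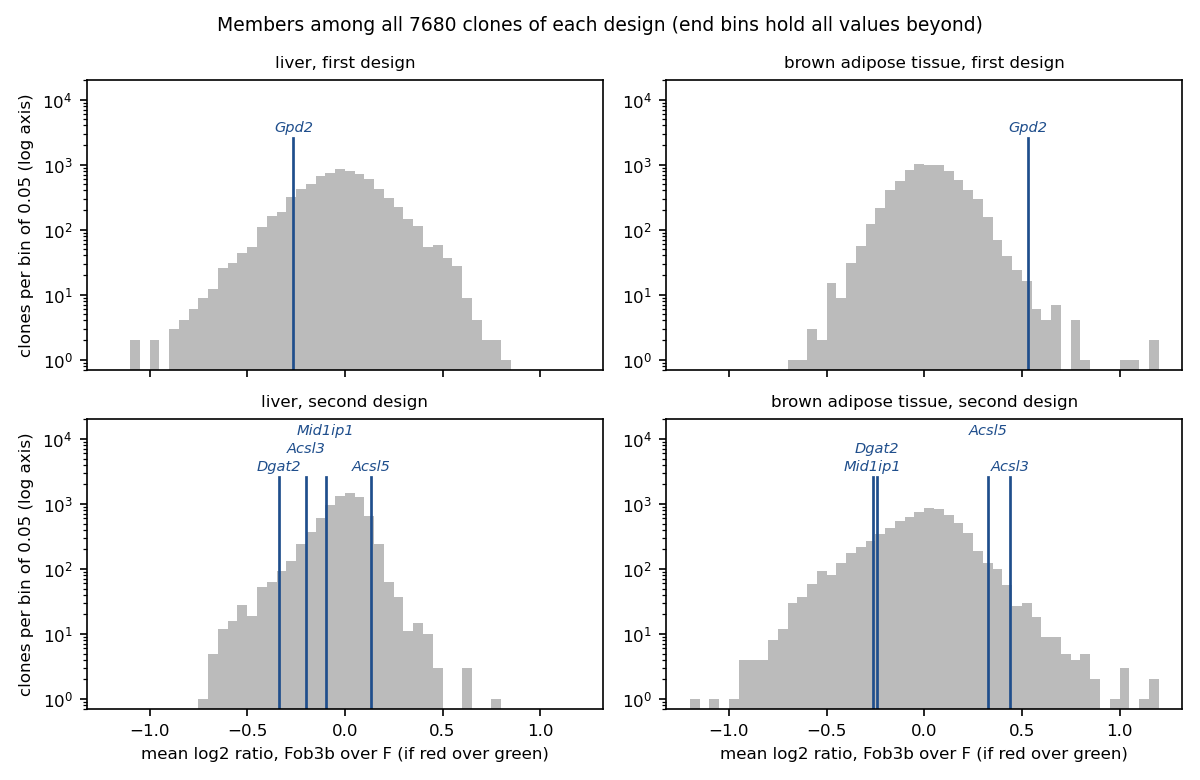
Number of clones (vertical log axis) by mean log2 ratio of Fob3b over F (horizontal axis, if red was divided by green) for liver and brown adipose tissue on each design, with the members as lines. Gpd2 and Acsl3 lie in the upper tail in brown adipose tissue and Dgat2 in the lower tail in liver.

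The other 4 liver arrays of the second design joined the pools in other ways, each on 1 array without a dye swap. Dgat2 had -0.56 for Fob3b pool 1 over F pool 2 and 0.52 for Fob3b pool 2 over F pool 1. Turned to Fob3b over F, the crossed pools thus stood on opposite sides, near the bottom and the top of all clones (ranks at 0.378% and 99.4%). Fob3b RNA was in green on the array at -0.56 and in red on that at 0.52. Read as red over green the values were alike, at 0.56 and 0.52, so the sign followed the dye orientation. Added along the other pools, the arrays would give -0.48 and -0.20 for these pairs. On the dye-swapped liver arrays the part of Dgat2 that stays with the dye was 0.05 and 0.07, red over green. Without a dye swap, the crossed arrays cannot tell the part of the dye apart from that of the pools, and this was not tested. Between pools of a line, pool 2 over pool 1, Dgat2 had 0.24 in Fob3b and 0.04 in F.

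On the single arrays between pools of the same line, Mid1ip1 lay farthest from 0 of the 4 genes, with 0.40 in Fob3b and -0.77 in F. The value in Fob3b is the mean of spots at 0.72 and 0.09, and the value in F that of spots at -0.59 and -0.95. As a share, 0.0911% of clones were as low as the F value. Its crossed arrays gave 0.64 (Fob3b RNA in green) and -0.27 (Fob3b RNA in red), so both were negative as red over green. Added along the other pools, the arrays would give 0.92 and -1.12. The means of both spots lay from -0.03 to 0.10 for Acsl3 and from -0.01 to 0.08 for Acsl5 on these 4 arrays. For Acsl3 the crossed arrays gave 0.10 and -0.03, where the other arrays would give -0.38 and -0.02. For Acsl5 they gave 0.03 and 0.04, where the others would give -0.05 and 0.32. For Acsl3 in the F pools the mean, 0.03, joins spots of opposite sign, at 0.34 and -0.29. Fitted to the 4 pools with a term for the dye, the 8 liver arrays gave line differences of -0.12 for Acsl3, 0.10 for Acsl5, -0.23 for Dgat2 and -0.0036 for Mid1ip1, with no test. In the same fit pool 2 less pool 1 was -0.10 in Fob3b and -0.16 in F for Mid1ip1. For Dgat2 these were larger, at 0.38 and 0.18, so the order on the single arrays was not kept. The residual SD of that fit was 0.64 for Mid1ip1, at or above that of 99.6% of clones, and 0.27 for Dgat2, 0.19 for Acsl3 and 0.11 for Acsl5, beside a median of 0.15 over all clones.

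**Figure D4:**
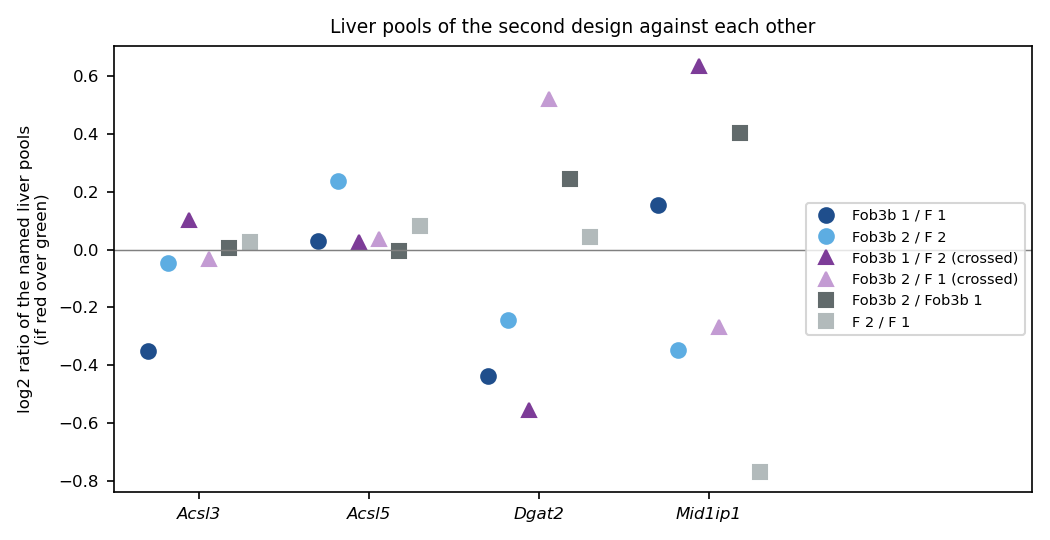
Log2 ratio (vertical axis, if red was divided by green) of the liver pools named in the legend, for the 4 members on the second design. Circles are means of dye-swapped arrays, and triangles and squares are single arrays. Dgat2 stands at -0.56 (Fob3b RNA in green) and 0.52 (Fob3b RNA in red) on the crossed arrays, and Mid1ip1 at 0.40 and -0.77 between pools of a line.

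Other genes of these pathways were described by lists. Of 28 genes of acyl-CoA synthesis and binding, 9 were measured on the second design. In liver 5 of them were positive, as were 51.4% of all genes, with a median of 0.0035 beside 0.0040 over all genes. In brown adipose tissue 7 were, beside 56.1% of all genes, with a median of 0.19 beside 0.03. The highest in both tissues was Aacs, the acetoacetyl-CoA synthetase, at 0.24 in liver and 1.05 in brown adipose tissue, and Dbi, the acyl-CoA-binding protein, had 0.23 and 0.34. The lowest in liver was Acss1, a mitochondrial acetyl-CoA synthetase, at -0.39. On the first design 3 were measured, and Acsl4, a synthetase that favours arachidonic acid, had -0.70 in liver and 0.21 in brown adipose tissue. On the second design Acsl4 had 0.13 in liver and 0.19 in brown adipose tissue, so its liver values were of opposite sign. None of the list's genes passed in liver on either design or in brown adipose tissue on the first (limma, over genes, where 0.172% passed in liver on the second design, 0% in liver and 0% in brown adipose tissue on the first).

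Of 24 genes of triglyceride synthesis, the second design measured 7 and the first 6. In liver on the second design 2 were positive and 5 negative, with a median of -0.08, beside 51.4% of all genes positive, and 0 passed. With printing blocks centred 3 of the 7 were positive and the median was -0.00026. Beside Dgat2 the lowest were Bscl2, which encodes the lipid droplet protein seipin, at -0.29 (adjusted p = 0.154 over genes), and Agpat3, an acylglycerol-phosphate acyltransferase, at -0.26 (adjusted p = 0.250). In brown adipose tissue 2 of the 7 were positive as well, with a median of -0.05, beside 56.1% of all genes positive. With printing blocks centred 4 of the 7 were (median 0.04). On the first design 1 of 6 was positive in liver (median -0.01, or -0.16 with printing blocks centred), beside 44.9% of all genes. In brown adipose tissue 2 of the 6 triglyceride synthesis genes were positive (median -0.06), beside 59.3% of all genes. Gpat4, a glycerol-3-phosphate acyltransferase, was the lowest of them in brown adipose tissue, at -0.29, and had -0.00014 in liver. Dgat1, the other diacylglycerol acyltransferase, was on that design too, with -0.02 in liver and -0.10 in brown adipose tissue. Lpin2, a phosphatidate phosphatase, had -0.72 in liver there and 0.12 in brown adipose tissue, and its liver pool pairs were -1.14 and -0.29.

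Of 11 genes listed around the supply and use of glycerol 3-phosphate, Gpd2 and Aldoa, an aldolase, were measured on the first design. Tpi1 and Slc2a4 were measured on the second. Gpd2 draws on glycerol 3-phosphate and does not supply it. Aldoa had -0.28 in liver and 0.34 in brown adipose tissue. Tpi1, the triose phosphate isomerase, had 0.25 in liver and 0.36 in brown adipose tissue, and Slc2a4, the insulin-regulated glucose transporter, had 0.15 and 0.65. All 4 were positive in brown adipose tissue, where 59.3% of all genes were positive on the first design, and none passed where a test was made.

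The 37 genes of lipogenic control include Mid1ip1, and 11 of them were measured on the second design. In liver 3 were positive (median -0.03), beside 51.4% of all genes. In brown adipose tissue 9 were (median 0.10), beside 56.1% of all genes, with Mid1ip1 the lowest of the list there. With printing blocks centred 5 were positive in liver (median -0.02) and 7 in brown adipose tissue (median 0.11). Prkab2, a subunit of the AMP-activated kinase, had -0.27 in liver and 0.01 in brown adipose tissue, and Thra, a thyroid hormone receptor, had -0.22 and 0.18, with all 4 liver arrays negative. Srebf1, the sterol-regulated transcription factor of lipid synthesis, had -0.03 in liver and 0.36 in brown adipose tissue, and Prkab1, another subunit of that kinase, had -0.05 and 0.31. On the first design 8 were measured, of which 1 was positive in liver (median -0.14), where 44.9% of all genes were. In brown adipose tissue 7 were positive (median 0.17), where 59.3% of all genes were. With printing blocks centred 3 were positive in liver (median -0.05) and 4 in brown adipose tissue (median 0.05). Usf2, a transcription factor that binds E-boxes, had -0.01 in liver and 0.32 in brown adipose tissue. Ppargc1b, a coactivator, had -0.32 in liver, the mean of 0.13 and -0.76 in the pool pairs. The kinase genes Stk11 and Akt1 stood at -0.29 and -0.28 in liver. Their brown adipose values were 0.12 and 0.13. No gene of this list passed.

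Of lipolysis and lipid droplet genes 3 of 20 were measured on each design. In brown adipose tissue 2 of the 3 were positive on each (medians 0.11 on the first and 0.07 on the second), beside 59.3% and 56.1% of all genes. In liver 1 of the 3 was (medians -0.12 and -0.20), beside 44.9% and 51.4% of all genes. Plin2, which coats lipid droplets, had -0.39 in liver (pool pairs -0.64 and -0.14; adjusted p = 0.188 over genes) and 0.26 in brown adipose tissue, the same signs as Acsl3. Plin3, another droplet coat protein, had 0.12 in liver and 0.55 in brown adipose tissue. Lpl on the first design and Gpihbp1 on the second were negative in brown adipose tissue, at -0.25 and -0.06, and in liver, at -0.12 and -0.20. Pnpla2, on both designs, had 0.11 and 0.07 in brown adipose tissue. The genes of fatty acid oxidation measured on the second design, 11 of 23, were all negative in liver (median -0.15) and all positive in brown adipose tissue (median 0.24). Of all genes 51.4% were positive in liver and 56.1% in brown adipose tissue on that design. With printing blocks centred 1 of the 11 was positive in liver, and where array medians were kept 1 was positive in brown adipose tissue. Cpt1a, the carnitine palmitoyltransferase that admits fatty acids to mitochondria, had -0.37 in liver and 0.19 in brown adipose tissue, and Hadha, of the mitochondrial trifunctional protein, had -0.23 and 0.39. None of them passed in liver. Among the lists the gene that passed was Fasn, the fatty acid synthase, of fatty acid synthesis and desaturation, at 0.63 in liver on the second design (adjusted p = 0.0147 over genes). In liver with the first design Fasn had 0.06 (adjusted p = 0.99998 over genes), the mean of -0.59 and 0.71 in the pool pairs, so the call was not repeated there. On the second design 6 of 8 genes of that list were positive in liver (median 0.05), beside 51.4% of all genes, and 6 of 8 in brown adipose tissue (median 0.47), beside 56.1%. On the first design 3 of 11 were positive in liver (median -0.05), beside 44.9% of all genes, and 11 of 11 in brown adipose tissue (median 0.49), beside 59.3%.

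**Figure D5:**
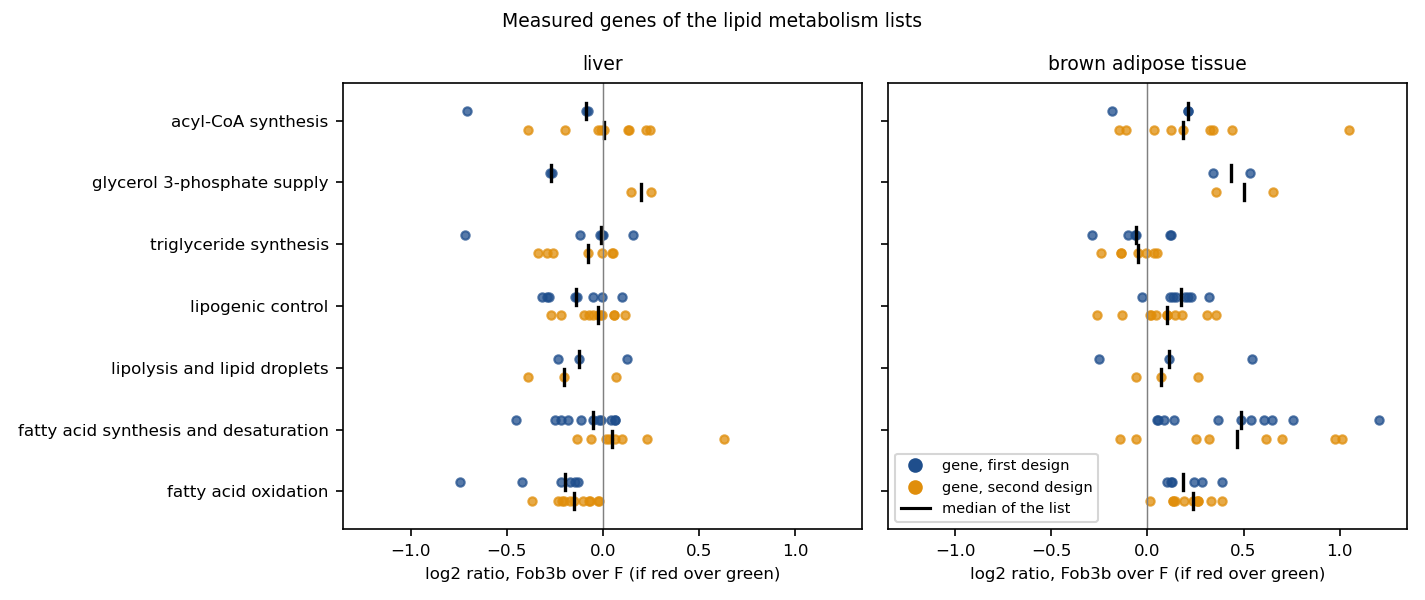
Log2 ratio of Fob3b over F (horizontal axis, if red was divided by green) of each measured gene of the lipid metabolism lists, in liver and in brown adipose tissue, by array design. Bars are list medians. Fatty acid oxidation genes lie below 0 in liver and above 0 in brown adipose tissue on both designs, relative to each array's median, and triglyceride synthesis genes lie around 0.

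Markers of other cells were looked at beside these values. Of skeletal muscle markers 2 of 16 were measured on each design. Tpm2 and Actn3, a tropomyosin and an actinin, had -0.58 and -0.47 on the first design, where Gpd2 was positive. On the second design Mylpf, a myosin light chain, and Tpm2 had 0.69 and 0.73, where Acsl3 and Acsl5 were positive. Pool pair 1 gave -0.89 for Tpm2 on the first design, so this gene had opposite signs for the same pools on the 2 designs. Of brown adipocyte markers Elovl3 and Prdm16 were measured, 2 of 13, with -0.06 and -0.15. Macrophage markers in brown adipose tissue lay between -0.05 and -0.01, and the 3 erythroid markers between -0.29 and 0.15. In liver the macrophage marker Lyz2, which encodes a lysozyme, had -0.44 on the first design and was negative on all 4 arrays, the arrays on which Gpd2, Lpin2 and Acsl4 had negative means. The macrophage markers C1qa and C1qb had -0.04 and 0.02 in liver on the second design. Of 16 hepatocyte markers 4, measured on the first design, were all negative in liver, where 44.9% of all genes were positive. Alb, the albumin gene, had -0.74. Apoa1, Ttr and Fga had -0.17, -0.15 and -0.14, each the mean of pool pairs of opposite sign. With printing blocks centred 1 of the 4 was positive. The part of these cells in the values of the members was not tested.

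The genes nearest in pattern were those with the smallest root-mean-square difference from a member over all arrays of the lines (8 for the first design, 6 for the second). For Acsl3 they were Acaa1a, a peroxisomal thiolase, at 0.112, Acat1, a mitochondrial thiolase, at 0.124 and Gna12 at 0.139. For Acsl5 they were Anxa7, Mnd1 and Cryzl2 at 0.0631 to 0.0666, and for Dgat2 Pprc1, Rab3d and Baiap2l1 at 0.125 to 0.137. Cdr2l, Psat1 and Sh2b3 stood nearest to Mid1ip1, at 0.0908 to 0.117. For Gpd2 the nearest were Zfp511, Fam151a and Tnfrsf12a, at 0.365 to 0.396. The median over all genes was 0.896 for Gpd2, 0.388 for Acsl3, 0.270 for Acsl5, 0.372 for Dgat2 and 0.476 for Mid1ip1.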

How the data were processed

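The authors deposited 1 log ratio per spot, taken here as log2. Their labelling, scanning, background and normalization steps are not stated. Each design held 17280 spots in 48 blocks. The spots of a clone lay 160 apart, and 1920 control spots were left out. Array medians were subtracted, the spots of a clone averaged, and then the dye swaps of each pool pair. The test was that of limma 3.58.1 (R 4.3.3), two-sided, with tissue as the factor and Benjamini-Hochberg adjustment over 7680 clones; steps were tested on simulated data. Its p-values reflect how pool pairs vary, which may be technical, and not how animals vary. An SE is moderated and can lie above or below the spread of the pairs. Gene names came from the platform annotation, and sequences from RefSeq (GRCm38.p6), with 4 of 5 genes matched. All clones of the members are given, up to 4 genes of each other list among those farthest from 0 in a comparison, with their value in the other tissue beside it, and 3 nearest patterns. Members and lists were chosen with earlier results of these data known. Lists got no set test. Alternatives covered centring, scaling, spots, dyes, replicates and the replicate block. Liver and brown adipose deviations of same-numbered pools correlated at 0.38 over clones, but with 2 pairs and no label on shared animals the numbers were not taken to pair the tissues.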

Additional observations from a re-analysis of the deposited data

Results flagged for a closer look

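Acsl3 was singled out because both liver pool pairs lay on one side and the brown adipose pool pair on the other, with a liver minus brown adipose difference of -0.64 on the second design. This difference was not tested, since brown adipose tissue had 1 pool pair there. By rank 34 of 7680 clones lay lower. It was -0.49 with each printing block centred, -0.44 with only the arrays with Fob3b RNA in red and -0.83 with only those in green. Relative to the median of its printing block, however, liver pool pair 2 was at 0.0019 and 0.076, red first. With the block taken off, the liver pool pairs thus no longer lay on one side. Of 6 sets of 4 arrays looked at for an array apart from the others, none had one by Dixon's test. Each set mixed pool pairs and dye orientations, and with 4 values the test can find only a very distant array. No conclusion is therefore drawn from it.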

How the results depend on the processing

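Of the members, Gpd2 passed under 1 alternative: with only the arrays with Fob3b RNA in red it was -1.10 in liver (adjusted p = 0.0142) and -1.87 for liver minus brown adipose tissue (adjusted p = 0.00145), and with only those in green these were 0.58 and 0.28, with the sign turned. With green only Mid1ip1 in liver was 0.094, and without centring Acsl5 in liver was -0.23, where the median of all clones was -0.37. Without a pool pair Mid1ip1 in liver ran from -0.35 to 0.15, Acsl3 from -0.35 to -0.05, Acsl5 from 0.03 to 0.24 and Dgat2 from -0.44 to -0.24. Gpd2 ran from -0.52 to -0.0046 in liver, from 0.50 to 0.57 in brown adipose tissue and from -1.05 to -0.54 for the difference. Dgat2 in liver was negative under every alternative run (-0.71 to -0.23, adjusted p 0.0645 to 0.571), and Gpd2 in brown adipose tissue positive (0.30 to 0.80, adjusted p 0.0583 to 0.99998). The -0.71, with its adjusted p of 0.0645, and the 0.80 were found without centring, where the medians of all clones were -0.37 and 0.30. The adjusted p of 0.0583 was found with red only. The number of clones called in liver on the second design, 29, became 159 without centring, 0 with printing blocks centred, 0 with arrays scaled, 2 with every array its own replicate, 7 with genes, 0 and 75 with the first or second spot, 0 with red only, 0 with green only and 0 with crossed arrays added. On the first design the count of 0 became 1 without centring, 4 with the tissue alone and 397 with red only in brown adipose tissue, 47 with red only in liver and 9 with red only for the difference. Without 1 pool pair it was 0 to 4 in brown adipose tissue, 0 to 140 in liver and 0 to 95 for the difference. The cause of these changes was not tested. With the pool number as a replicate block the difference of Gpd2 was -0.80 (adjusted p = 0.739) and 0 clones passed. Without intensities no limit from signal over background can be given.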
